A study of Mus musculus with 4 samples.

Results

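The Id proteins (*Id1*, *Id2*, *Id3* and *Id4*) and the E proteins (*Tcf3*, *Tcf4* and *Tcf12*) were followed at the level of their transcripts through the progenitor and neuron stages of the mouse medial ganglionic eminence (MGE), the ventral forebrain zone that makes many cortical interneurons. These 7 genes were taken by symbol from the 32285 genes of the count tables, and all 7 passed the filter on low counts in every comparison. MGE of e14.5 embryos of a mixed C57/BL6 and ICR strain had been dissected and profiled cell by cell in droplets (10x Genomics chemistry). There were 2 libraries of St18 (−/−) embryos, called null, and 2 of WT (+/+) embryos, all from crosses of heterozygous parents. The null animals lack *St18*, a zinc finger transcription factor gene, in the whole body, which per the study's methods was reached by germline deletion of a conditional allele. Embryos were pooled by genotype before dissociation, and neither how many embryos made a pool nor their sex was stated. The study says only in general that mice of both sexes were used. The question put to the 7 genes was how their transcripts differ between stages, between the kinds of neurons in the dissection and between the genotypes.

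E proteins are basic helix-loop-helix (bHLH) transcription factors that bind E-box DNA as dimers, often with a proneural partner. Id proteins have the helix-loop-helix but no DNA-binding region, so an E protein caught by an Id protein is kept off DNA. Bone morphogenetic protein (BMP) signalling is a known inducer of *Id* genes, and *Id* genes are known for holding neural progenitors undifferentiated.

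Promoter sequences of *Id2* and *Id4*, as RefSeq gives them on GRCm38.p6, are shown because the genes went opposite ways between the progenitor stages described below. RefSeq's windows hold the 250 bases before its transcript start, at chr12:25096093-25096342 on the minus strand for *Id2*, chr4:136143572-136143821 on the plus strand for *Id3* and chr13:48260866-48261115 on the plus strand for *Id4*. GENCODE M21 starts *Id2* and *Id3* further upstream, so that it counts 161 bases of the *Id2* window and all 250 of the *Id3* window as untranslated region, and those bases are not shown. The *Id2* line holds the 89 bases left (chr12:25096254-25096342), which lie in an intron of the longest GENCODE transcript and upstream of a shorter one that starts where RefSeq's does, and the *Id4* line holds the whole window, each 5′ to 3′ on the gene's own strand. Capitals mark GGCGCC, a GC-rich Smad-binding sequence, and the E-boxes CAGCTG and CACCTG, all searched on both strands.
Id2: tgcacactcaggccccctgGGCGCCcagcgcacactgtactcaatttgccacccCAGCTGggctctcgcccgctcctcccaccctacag
Id4: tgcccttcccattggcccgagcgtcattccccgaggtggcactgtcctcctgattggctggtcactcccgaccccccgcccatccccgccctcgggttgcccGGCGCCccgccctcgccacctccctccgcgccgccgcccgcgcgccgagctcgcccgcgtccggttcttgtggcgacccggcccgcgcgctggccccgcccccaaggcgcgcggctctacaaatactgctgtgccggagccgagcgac

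Over the full 250 bases, the *Id2* and *Id4* windows each held 1 GGCGCC, starting at base 20 and base 103 of the lines shown, and the *Id3* window held none. GGCGCC was present in 9.59% of all 32851 RefSeq promoter windows of this length. Of the E-box forms searched, CAGCTG was held by the *Id2* window alone of the 3, at base 55, and 13% of all windows hold it. None of the 3 held CACCTG, which 17.2% hold, and other E-box forms were not searched. These matches describe letters in a short window and say nothing of binding.

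The libraries held 70991150 to 92984713 UMIs (unique molecular identifiers, each standing for 1 captured transcript), and 3758 to 6279 cells per library were kept, with a median of 6151.5 to 9224 UMIs per cell. Between 4 and 9 cell barcodes were shared by any pair of libraries. Values of 4 libraries are given in the order null replicate 1, null replicate 2, WT replicate 1 and WT replicate 2, where the numbers only name the libraries. *St18* itself went against one label, at 24.9, 76.7, 44.5 and 59.0 CPM (UMIs of the gene in 1000000 UMIs) in neurons, so that the library labelled null replicate 2 was above both WT libraries, although per the study's methods the deletion takes out internal exons and shifts the reading frame, so that counts can still come from a null allele and this check does not settle the label. The pools also differed in sex, with 3 or more *Xist* UMIs in 35.3% and 64.8% of the cells of the null libraries and in 0% of the cells of both WT libraries, so genotype and sex cannot be told apart without the male cells taken alone. Every comparison of genotypes below therefore concerns libraries by their labels.

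On the GRCm38 build, *Id1* (ENSMUSG00000042745) lies at chr2:152736251-152737410, *Id2* (ENSMUSG00000020644) at chr12:25093799-25097140, *Id3* (ENSMUSG00000007872) at chr4:136143497-136145755 and *Id4* (ENSMUSG00000021379) at chr13:48261228-48266026. *Tcf3* (ENSMUSG00000020167) lies at chr10:80409514-80433647, *Tcf4* (ENSMUSG00000053477) at chr18:69343356-69689079 and *Tcf12* (ENSMUSG00000032228) at chr9:71842688-72111871. All 7 are annotated as protein coding.

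Cells were clustered without the 7 genes and without the pathway genes named below, and clusters were placed by marker genes. The 28 clusters gave 2335 radial-glia-like cells in 4 clusters, 5514 other progenitors in 7 clusters and 10135 neurons in 14 clusters. Radial-glia-like cells carry markers such as *Slc1a3* and *Fabp7*, and the other progenitors were mostly dividing cells with few radial glia markers. Neuron clusters were named by region where at least 3 markers of a region stood above all other cells at a log2 fold of 1. By this rule 2 clusters (0 and 7) were MGE-like and 2 clusters (13 and 20) were LGE-like, after the neighbouring lateral eminence. In addition, 1 small cluster (26) was pallial-like. Markers shared by most cells cannot pass, so the rule does not judge the labelled tissue. Summed, the 6 MGE markers were at 1535, 1800, 1479 and 1480 CPM in all neurons. MGE-like cells made up 31.1%, 35.3%, 29.1% and 26.5% of each library's neurons, and LGE-like cells 10.2%, 10.8%, 9.88% and 5.67%. The remaining 9 neuron clusters were not named by region, among them cluster 15, which met both the MGE and the CGE (caudal eminence) lists.

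Across the 3 stages, *Id1*, *Id3* and *Id4* were highest in radial-glia-like cells and *Id2* was lowest there. *Tcf4* went from lowest in radial-glia-like cells to highest in neurons, *Tcf3* was lowest in neurons, and *Tcf12* differed least. Radial-glia-like cells were first compared with the other progenitors within each library, with edgeR on summed counts and the library as a block. All 7 genes passed at an adjusted p of 0.05, in a comparison where 65.6% of the 12586 genes tested did, 33.6% higher and 32% lower in radial-glia-like cells.

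*Id1*, an inhibitor best known as a direct BMP target, stood at 35, 30.2, 45.3 and 49.9 CPM in radial-glia-like cells and at 11.2, 10.8, 15.0 and 12.9 CPM in the other progenitors. Every library was higher in radial-glia-like cells, and the stages did not overlap. The log2 difference was 1.62 ± 0.08 (SE, n = 4 libraries; edgeR adjusted p = 1.77e-14). *Id3*, a close relative of *Id1*, stood at 36.5, 23.8, 32.2 and 50.5 CPM in radial-glia-like cells. In the other progenitors it was at 5.31, 3.88, 4.52 and 4.70 CPM. The ratio ran from 6.13 in the lowest library to 10.7 in the highest, and the log2 difference was 2.85 ± 0.11 (edgeR adjusted p = 1.40e-16).

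*Id4*, a divergent member that also binds other Id proteins, stood at 186, 198, 159 and 172 CPM in radial-glia-like cells and at 37.3, 42.5, 34.1 and 39.1 CPM in the other progenitors, a log2 difference of 2.19 ± 0.06 (edgeR adjusted p = 4.25e-19). *Id2* went the other way. It was at 40.3, 31.9, 39.7 and 49.4 CPM in radial-glia-like cells and at 79.3, 65.7, 116 and 99.3 CPM in the other progenitors. Every library was lower in radial-glia-like cells, with a log2 difference of -1.17 ± 0.08 (edgeR adjusted p = 8.51e-12).

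**Figure D1:**
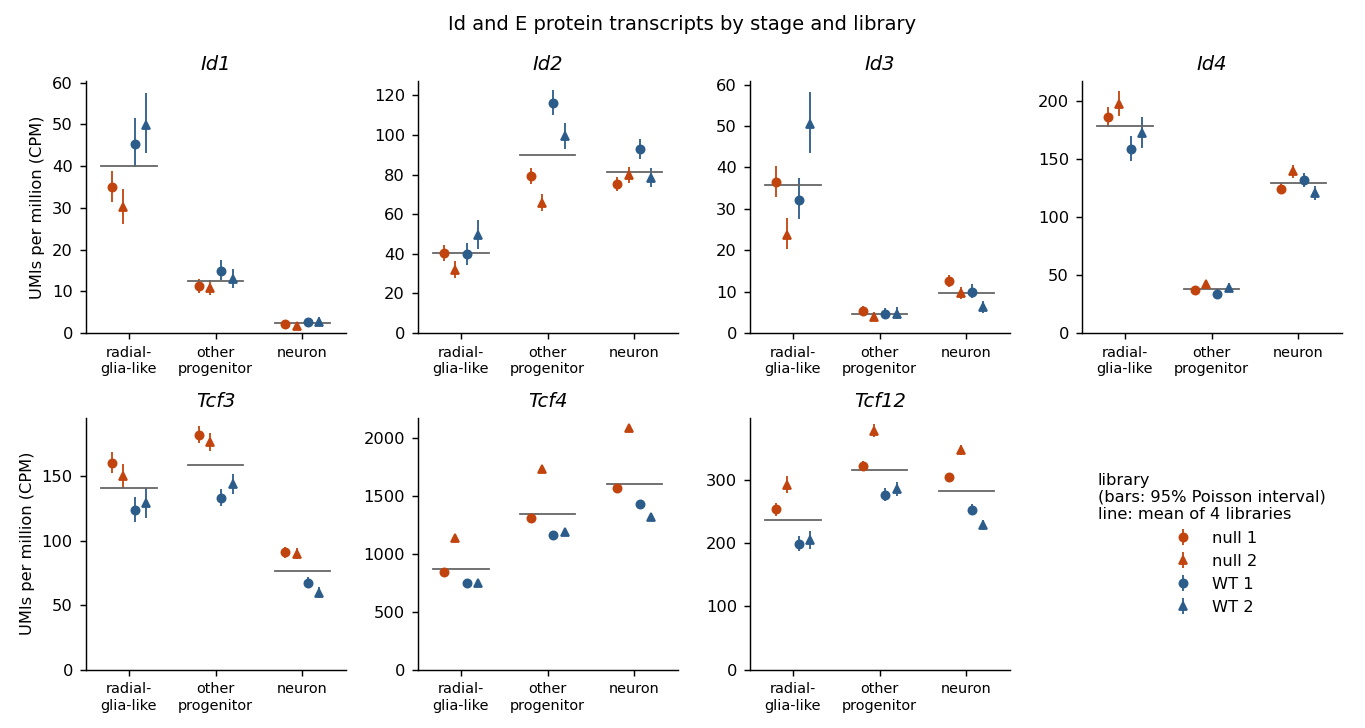
Transcript level of each of the 7 genes (CPM, linear axis from 0) in radial-glia-like cells, other progenitors and neurons. Each point is 1 library with its 95% Poisson interval (counting error only) and the grey line is the mean of the 4 libraries; *Id1*, *Id3* and *Id4* peak in radial-glia-like cells, *Id2* is lowest there, and both null libraries lie above both WT libraries for *Tcf3*, *Tcf4* and *Tcf12*, as they do for 48.2% of all genes in progenitors and 42.8% in neurons.

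All 3 E proteins were lower in radial-glia-like cells than in the other progenitors. *Tcf4*, which encodes E2-2 and is the E protein gene most tied to brain development, was at 844, 1138, 748 and 750 CPM in radial-glia-like cells and at 1310, 1736, 1163 and 1190 CPM in the other progenitors. Its log2 difference was -0.67 ± 0.04 (edgeR adjusted p = 1.58e-13). *Tcf12*, which encodes HEB, was at 253, 292, 199 and 204 CPM against 322, 378, 277 and 285 CPM (log2 difference -0.45 ± 0.05, edgeR adjusted p = 1.87e-08). *Tcf3*, which encodes E12 and E47, was at 160, 150, 124 and 129 CPM against 182, 176, 133 and 144 CPM. Its log2 difference of -0.21 ± 0.05 (edgeR adjusted p = 0.00172) was the smallest of the 7, lay on the same side in 4 of 4 libraries, and lost its call in the fit without the library block (adjusted p = 0.141).

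The Id and E protein UMIs of a stage can be set against each other within a library. Radial-glia-like cells held 23.7, 18, 25.8 and 29.7 Id UMIs for every 100 E protein UMIs. The other progenitors held 7.33, 5.37, 10.8 and 9.64, and neurons held 10.9, 9.13, 13.6 and 12.9. Radial-glia-like cells were thus above the other stages in all 4 libraries, and neurons were above the other progenitors in all 4. Neurons were split in this value, with 8 of 14 neuron clusters at 4.62 to 7.60, below the 7.68 of the other progenitors with the libraries summed, and the clusters that carry the neuron value are described further on. The value sums genes whose transcripts may be captured unequally, so only its change between stages is read.

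All progenitors together were then compared with neurons. Of the 7 genes, 5 passed (*Id1*, *Id3* and *Tcf3* higher in progenitors, *Id4* and *Tcf4* lower), where 80.5% of the 13723 genes tested did, 39.6% higher and 40.8% lower. *Id1* in neurons was at 2.22, 1.76, 2.55 and 2.73 CPM against 19.7, 17.2, 24.5 and 23.5 CPM in progenitors (log2 difference 3.25 ± 0.09, edgeR adjusted p = 1.98e-15). The neuron level was near that of the erythroid-like cells, which held 3 *Id1* UMIs in all, or 1.69 CPM. Thinned to 3000 UMIs per cell, 0.661% of neurons and 1.31% of the 153 erythroid-like cells had an *Id1* UMI. Unthinned, the shares were 1.42% and 1.96%, at median depths of 5992 and 11387 UMIs. The share in neurons was thus no higher than in erythroid-like cells, and whether it is background was not tested.

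*Tcf3* was at 174, 168, 130 and 140 CPM in progenitors and at 90.9, 89.9, 67.2 and 59.5 CPM in neurons. Every library was higher in progenitors (log2 difference 1.05 ± 0.05, edgeR adjusted p = 7.20e-12). *Tcf4* was at 1143, 1539, 1032 and 1064 CPM in progenitors and at 1571, 2089, 1430 and 1323 CPM in neurons (log2 difference -0.37 ± 0.04, edgeR adjusted p = 2.43e-07). *Tcf12* was at 297, 349, 252 and 262 CPM in progenitors and at 304, 347, 253 and 229 CPM in neurons, which differed by less than the spread between libraries (log2 difference 0.10, 95% interval 0.00 to 0.19, edgeR adjusted p = 0.0508). Its direction turned to -1.79e-04 without the LGE-like clusters, and it passed in 7 of 14 alternative fits.

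*Id2* was at 65.3, 54.6, 92.0 and 85.1 CPM in progenitors and at 75.2, 79.8, 92.9 and 78.4 CPM in neurons. The stages overlapped and the test was not passed (log2 difference -0.11, 95% interval -0.28 to 0.06, edgeR adjusted p = 0.226). It was lower in progenitors in both null libraries and in WT replicate 1, and higher in WT replicate 2, and without null replicate 2 the difference was 0.03. It passed in 4 of 14 alternative fits, among them those without WT replicate 2 (-0.21, adjusted p = 0.0135) and without the LGE-like clusters (-0.25, adjusted p = 0.0102). *Id3* was at 16.5, 10.4, 13.2 and 17.8 CPM in progenitors and at 12.5, 9.60, 9.99 and 6.25 CPM in neurons (log2 difference 0.59 ± 0.14, edgeR adjusted p = 0.00110). That average hides an order: other progenitors were below neurons in all 4 libraries and radial-glia-like cells above them in all 4. Without WT replicate 2 the difference was 0.36 (adjusted p = 0.00114), and with doublets kept it was 0.30 (adjusted p = 0.0327).

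*Id4* was at 90.6, 93.7, 73.4 and 77.1 CPM in progenitors and at 124, 139, 132 and 121 CPM in neurons (log2 difference -0.57 ± 0.05, edgeR adjusted p = 4.99e-09). Without the 2 LGE-like clusters it was -0.14 (adjusted p = 0.0208). With neurons taken as a whole, the order over stages for *Id4* was radial-glia-like cells, then neurons, then other progenitors, with no overlap between neighbours. Single neuron clusters ran from 20.2 CPM (cluster 7) to 1041 CPM (cluster 21), where the other progenitors, libraries summed, were at 38.3 CPM. The neuron value is carried by the few clusters with high *Id4* described further on.

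**Figure D2:**
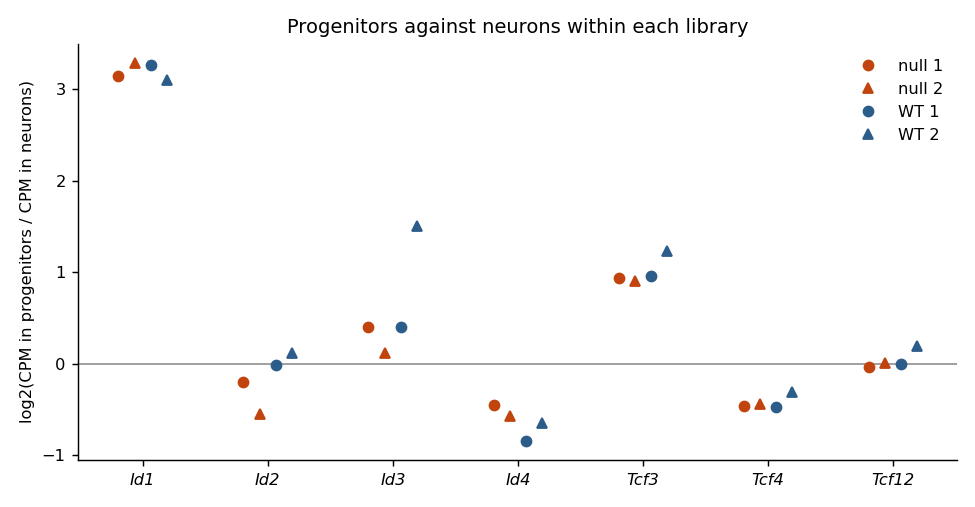
Log2 ratio of the CPM in progenitors to the CPM in neurons for each gene, 1 point per library, with a line at 0 for equal levels. *Id1* and *Tcf3* lie above 0 and *Id4* and *Tcf4* below it in all 4 libraries, while *Id2* lies on both sides and *Id3* spreads most.

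Neurons were not uniform in these genes. In 5 of the 14 neuron clusters (11, 13, 19, 20 and 21) *Id4* was high and *Tcf4* was low. These were chosen after their values were seen, and the description carries no test. Cluster 21, led by *Six3* and *Tshz2*, was at 1041 CPM of *Id4*, cluster 20 (LGE-like) at 623, cluster 19 at 409, cluster 11, led by *Calb1*, at 382 and cluster 13 (LGE-like) at 318. The other 9 neuron clusters ranged from 20.2 to 140 CPM. By library, cluster 21 spanned 986 to 1132 CPM and cluster 13 spanned 301 to 328 CPM.

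*Tcf4* in these 5 clusters was at 143 to 326 CPM, and in the other 9 at 959 to 3778 CPM. Cluster 15 was highest (3106 to 4257 CPM over the 4 libraries), followed by the MGE-like cluster 0 (2234 to 3013 CPM). *Tcf12* followed in part, at 95.6 to 197 CPM in the 5 clusters and at 123 to 460 in the others. *Tcf3* was at 30.8 to 39.3 CPM in 4 of the 5 clusters but at 121 CPM in cluster 20, the highest of all neuron clusters, in which 68.2% of cells were called G1 against 98.3% in cluster 0.

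In the 5 clusters the Id UMIs for every 100 E protein UMIs ran from 97.9 to 289. High values follow from choosing these clusters for high *Id4* and low *Tcf4*, and are no further result. In the other 9 clusters the Id UMIs for every 100 E protein UMIs ran from 4.62 to 7.60, but for 33.1 in the pallial-like cluster 26. Across the 14 neuron clusters *Id4* and *Tcf4* (log2(CPM + 1)) correlated at Pearson r = -0.79 and Spearman rho = -0.65 with the libraries summed, and at r = -0.68 to -0.80 within single libraries. The clusters share their libraries and are not replicates, so this is a description. The 14 include the 5 chosen clusters, and the correlation without them was not computed. The 5 clusters held 21.5%, 22.1%, 19.4% and 19.7% of the neurons of the 4 libraries.

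**Figure D3:**
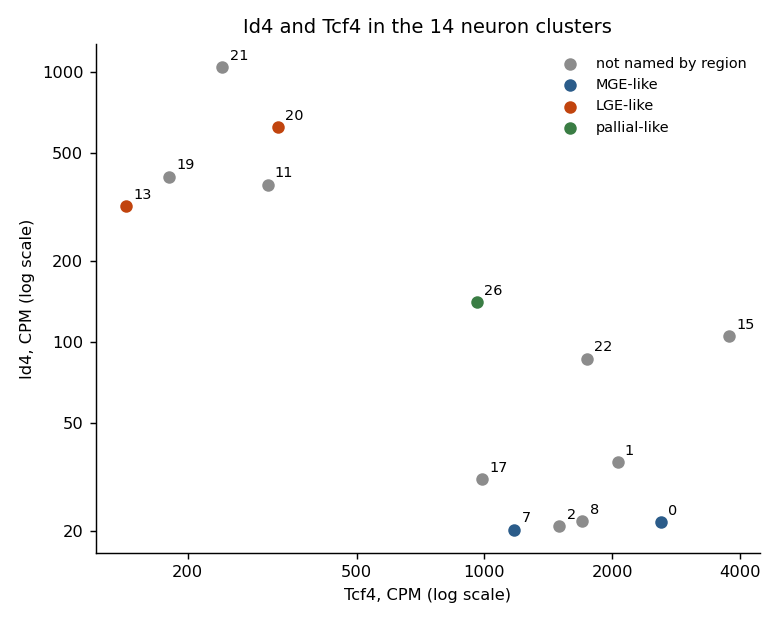
*Id4* against *Tcf4* (CPM, both axes on a log scale) in the 14 neuron clusters, each point 1 cluster by its number with the 4 libraries summed, coloured by the region its markers name. Clusters 11, 13, 19, 20 and 21 lie at the upper left, with *Id4* from 318 to 1041 CPM and *Tcf4* from 143 to 326 CPM.

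Across neuron clusters *Id2* followed *Tcf4* in part. It was lowest in the LGE-like cluster 13, at 9.83 CPM, and was at 13, 19.7 and 32.3 CPM in clusters 21, 20 and 19, but at 62.5 CPM in cluster 11, above the 58.0, 61.4 and 48.3 CPM of clusters 2, 7 and 17, where *Tcf4* was higher. It was highest in the pallial-like cluster 26, at 238 CPM from 59 cells, with a wide range of 72.4 to 288 CPM over libraries. Cluster 15 followed at 168 CPM (133 to 314). Across the 14 clusters *Id2* and *Tcf4* correlated at r = 0.80 and rho = 0.71 with the libraries summed, and at r = 0.37 to 0.72 within libraries.

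*Id3* in neurons was concentrated in the MGE-like cluster 0, led by *Epha5*, *Maf* and *Nxph1*, at 36.9, 23.6, 37.3 and 31.0 CPM in the 4 libraries. The median over the neuron clusters was 3.38 CPM. In radial-glia-like cells *Id3* was highest in cluster 18, led by *Fabp7*, *Bcan*, *Slc1a3* and *Aldh1l1*, at 97.3, 63.3, 73.5 and 215 CPM, against 16.9 to 24.8 CPM in the other 3 clusters with the libraries summed. *Id1* and *Id4* were also highest in that cluster among radial-glia-like cells, at 50.2 and 219 CPM, but only narrowly so, with 45.5 CPM of *Id1* in cluster 14 and 215 CPM of *Id4* in cluster 5.

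**Figure D4:**
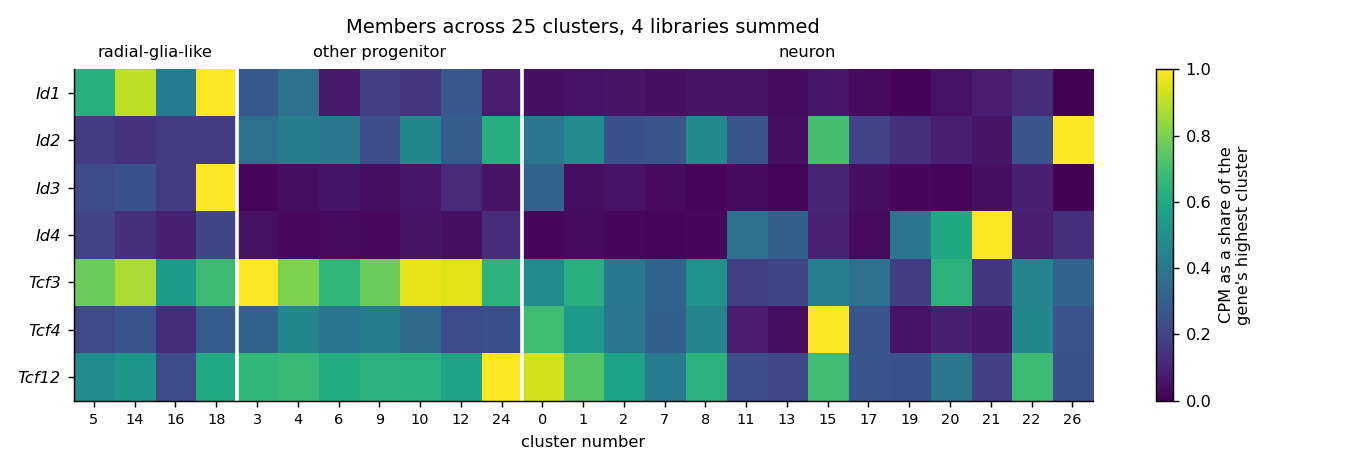
Level of each gene in the 25 progenitor and neuron clusters with the 4 libraries summed, as a share of that gene's highest cluster (colour scale 0 to 1). *Id1* is highest in radial-glia-like clusters 18, 14 and 5, and is at 20.7 CPM in radial-glia-like cluster 16 and 18.6 CPM in cluster 4 of the other progenitors, *Id3* is highest in radial-glia-like cluster 18 and weaker in neuron cluster 0, and *Id4* is highest in neuron clusters 11, 13, 19, 20 and 21.

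In radial-glia-like cells *Id3* also differed by called cell cycle phase. It was at 125, 59.4, 66.0 and 122 CPM in cells called G1, at 36.0, 23.9, 38.8 and 29.0 CPM in cells called S and at 22.7, 16.8, 21.6 and 55.0 CPM in cells called G2M. Cluster 18 held 67.9% of the cells called G1, 7.22% of those called S and 6.79% of those called G2M, so phase and cluster cannot be told apart there. *Tcf3* went from 112 CPM in cells called G1 to 146 in S and 151 in G2M with the libraries summed. Before thinning it was lowest in G1 in all 4 libraries. Thinned to 3000 UMIs per cell, null replicate 2 was at 123 CPM in G1 and 121 CPM in S, so the order did not hold there. For *Tcf3* too, phase and cluster cannot be told apart. Phase calls were made without the 7 genes, and thinning to 3000 UMIs moved none of the 21 values by more than the spread between libraries.

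Markers of other cells were summed in each stage. The 7 endothelial markers summed to 6.56 to 14.9 CPM in radial-glia-like cells, 6.03 to 9.40 in other progenitors and 3.63 to 10.7 in neurons, and *Cdh5* was at 0 in radial-glia-like cells of both WT libraries. The 5 oligodendrocyte precursor markers summed to 155 to 211 CPM in radial-glia-like cells and 74.6 to 84.4 in other progenitors, with *Sox10* at 0 in radial-glia-like cells of WT replicate 1. The 7 erythroid markers stood apart at 4169 CPM in radial-glia-like cells of WT replicate 2, against 59.2 to 76.4 in the other libraries, and at 458 CPM in other progenitors of null replicate 1, against 65.4 to 79.2. The 6 LGE markers summed to 629 to 956 CPM in radial-glia-like cells, 327 to 477 in other progenitors and 618 to 1056 in neurons, lowest in WT replicate 2 in each stage. The 6 CGE markers were higher in both null libraries than in both WT libraries in every stage, at 450 and 462 against 306 and 260 CPM in radial-glia-like cells, 304 and 370 against 253 and 250 in other progenitors and 379 and 455 against 269 and 303 in neurons. The 6 MGE markers were also higher in both null libraries in other progenitors, at 1198 and 1309 against 1000 and 1078 CPM. They were so in neurons as well, at 1535 and 1800 against 1479 and 1480 CPM. In radial-glia-like cells the MGE sums overlapped, at 295 and 313 against 249 and 324 CPM. The LGE and the oligodendrocyte precursor sums were higher in both null libraries in every stage. Of single genes, 48.2% were so in progenitors and 42.8% in neurons. The 6 pallial markers stood at 42.2 CPM in neurons of null replicate 2, against 1.84 to 8.36 in the other libraries. The part of these lists in the results, those between genotypes included, was not tested. Erythroid-like cells held 5.07 CPM of *Id4* and 0.563 CPM each of *Id2* and *Id3*. Droplets under 100 UMIs, which carry free RNA and debris, held 14.9 to 24.7 CPM of *Id1* and 110 to 136 CPM of *Id4*. By library, *Id2* in these droplets was at 44.9 and 38.5 CPM in null against 59.9 and 53.5 in WT. *Id1* was at 19.2 and 14.9 against 22.7 and 24.7 and *Tcf3* at 112 and 88.5 against 79.3 and 64.5. *Tcf4* was at 693 and 729 against 606 and 525 and *Tcf12* at 167 and 148 against 118 and 115. *Id4* was at 110 and 117 in null droplets against 136 and 123 in WT droplets, the reverse of its order in progenitors. In progenitors it was at 90.6 and 93.7 in null against 73.4 and 77.1 CPM in WT. *Id3* overlapped in the droplets. The share of all genes that did not overlap there was not computed, so no genotype difference is read from the droplet values.

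The genes whose level over the clusters was most like a member's, by Pearson r of log2(CPM + 1) over 27 clusters of at least 50 cells, differed between members. These clusters included the erythroid-like and the microglia-like cluster, whose part in r was not tested. For *Id1* they were *H19*, *Nrarp* and *Zfp36l1* (r = 0.91, 0.90 and 0.89), for *Id3* *Sparc*, *Mfge8* and *Actn1* (0.84, 0.77 and 0.76) and for *Id4* *Peg10*, *Nr2f1* and *Meis2* (0.89, 0.86 and 0.85). For *Id2* the list was *Mib1*, *Tcf4* and *Rbpj* (0.86, 0.85 and 0.84), so that an E protein gene stood among the most alike of 6488 genes. For *Tcf3* they were *Prkd3*, *Dck* and *Clic4*, for *Tcf4* *Kiz*, *Satb1* and *Zfp536* and for *Tcf12* *Zkscan3*, *Cdc42se2* and *Sp3*, with r from 0.91 to 0.97.

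The other genes of the pathway were counted over fixed lists in the same stage comparisons. Of the 6 Hes and Hey repressors, which act with Id proteins in holding progenitors, 5 were tested against neurons, and all 5 were higher in progenitors, where 39.6% of all genes were. Between progenitor stages 4 were higher in radial-glia-like cells and 1, *Hes6*, was lower, where 33.6% and 32% of all genes were (log2 difference -0.37 ± 0.07, edgeR adjusted p = 3.54e-05, and 0.0692 without the library block). *Hes6* is known for opposing *Hes1* and promoting differentiation, unlike the rest of the list. *Hes1*, a Notch target, was at 73.9, 91.3, 88.1 and 73.7 CPM in radial-glia-like cells and at 5.14, 6.54, 8.5 and 5.22 CPM in the other progenitors. Its log2 difference was 3.67 ± 0.08 (edgeR adjusted p = 3.89e-21), and that of *Hes5* was 2.53 ± 0.05. The median of the 5 was 2.53, where the median of all genes tested was 0.01.

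Of the 14 bHLH partners of E proteins, 6 were tested between progenitors and neurons, with 4 higher and 2 lower in progenitors, beside the 39.6% of all genes that were higher and 40.8% that were lower. Between the progenitor stages 4 were tested, with 2 higher and 2 lower in radial-glia-like cells, where 33.6% and 32% of all genes were. *Olig2*, known for its part in ventral progenitors and the oligodendrocyte lineage, was 1 of the higher ones, by a log2 difference of 1.17 ± 0.06 (edgeR adjusted p = 4.18e-14). All 8 genes of the list of proneural targets were tested, and 6 were lower in radial-glia-like cells than in other progenitors, 1 was higher and 1 did not pass (list median -1.0), where 32% of all genes were lower and 33.6% higher. *Cdkn1c*, a cell cycle inhibitor, was at 43.2, 42.9, 22.8 and 38.4 CPM against 160, 119, 144 and 168 CPM (log2 difference -2.03 ± 0.11, edgeR adjusted p = 1.16e-13). *Btg2* was the member that was higher, by 0.38 ± 0.05 (edgeR adjusted p = 1.40e-06), and it lost its call with classes from each cell's own scores (0.08, adjusted p = 0.128).

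Of the 9 BMP ligands and antagonists only 2 had counts enough to be tested between the progenitor stages, and both were antagonists. *Nog*, which encodes the BMP-binding protein noggin, was at 16.3, 18.8, 17.0 and 19.3 CPM in radial-glia-like cells and at 0.503, 0.862, 0.620 and 0.313 CPM in the other progenitors (log2 difference 4.85 ± 0.20, edgeR adjusted p = 5.97e-16). *Fst*, which encodes follistatin, was higher by 3.12 ± 0.26. Of the 13 BMP receptors and Smads 11 were tested, and 3 were higher, 5 lower and 3 not called in radial-glia-like cells (list median 0.04), where 65.6% of all genes were called. *Smad4*, the common partner Smad, was lower by a log2 difference of -0.28 ± 0.05 (edgeR adjusted p = 1.10e-04), and *Bmpr2* by -0.71 ± 0.06 (edgeR adjusted p = 8.67e-10).

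Null was then compared with WT in progenitors and in neurons, over libraries and without pairing, to ask whether loss of *St18* goes with a change in these genes. None of the 7 passed in either stage with edgeR, while DESeq2 called 1 (*Id2*) in progenitors and 0 in neurons. Only 0.022% of 13629 genes passed in progenitors and 0.0736% of 13586 in neurons with edgeR, and 17.3% and 17.1% had an unadjusted p under 0.05. In progenitors 2 of the 7 members (*Id1* and *Id2*) and in neurons 3 (*Id2*, *Tcf3* and *Tcf12*) were under that unadjusted threshold.

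*Id2* was the lowest in null progenitors relative to WT, where the null libraries held 65.3 and 54.6 CPM and the WT libraries 92.0 and 85.1 CPM, a log2 difference of -0.75 ± 0.15 (SE, n = 2 against 2; edgeR adjusted p = 0.0901). The genotypes did not overlap, in a comparison where 59.3% of all genes tested did not, 11.1% with null below WT. By stage they did not overlap in the other progenitors. In radial-glia-like cells they overlapped narrowly, at 40.3 CPM in null replicate 1 and 39.7 CPM in WT replicate 1. The means there were 36.1 CPM in null and 44.6 CPM in WT, so no difference between these stages is read. The share of all genes that did not overlap was not computed for either of them. *Id2* without null replicate 2 was at -0.56 (adjusted p = 9.17e-04), and without null replicate 1 at -0.96 (adjusted p = 6.49e-06), fits in which the lone null library is assumed to vary like WT. That assumption may not be met. With progenitors and neurons summed, the null replicates differed by a chi-square per degree of freedom of 52.1 and the WT replicates by far less. This value also takes in differences in the make-up of stages, and it was not computed in progenitors alone. The adjusted p-values of every fit without a null library, here and below, may therefore be too small. DESeq2 gave *Id2* an adjusted p of 0.00104, and edgeR without the filter on low counts gave 4.00e-05. Over its 14 alternatives *Id2* ranged from -0.96 to -0.56, with adjusted p from 6.49e-06 to 0.470, and in male cells alone it was at -0.77 (adjusted p = 0.103).

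*Id1* in progenitors did not overlap either, with null libraries of 19.7 and 17.2 CPM and WT libraries of 24.5 and 23.5 CPM (log2 difference -0.56 ± 0.14, edgeR adjusted p = 0.143). It was at -0.41 without null replicate 2 (adjusted p = 0.00928) and at -0.74 without null replicate 1 (adjusted p = 6.05e-05). *Id3* overlapped, with a log2 difference of -0.36 and a 95% interval of -0.95 to 0.23. With a library left out it ranged from -0.81 to -0.02, the latter without null replicate 2. *Id4* differed by 0.10, with an interval of -0.15 to 0.35. In CPM its null libraries (90.6 and 93.7) lay above its WT libraries (73.4 and 77.1), as they did for 48.2% of the genes tested.

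The estimates for the E proteins were positive. In progenitors the log2 differences were 0.15 for *Tcf3*, 0.15 for *Tcf4* and 0.13 for *Tcf12*, each with an interval that included 0. Without null replicate 2 they were 0.24, -1.89e-05 and 0.08. Over all fits with a library left out they ranged from 0.05 to 0.24, from -1.89e-05 to 0.30 and from 0.08 to 0.19. In neurons *Tcf3* held 90.9 and 89.9 CPM in the null libraries, above the 67.2 and 59.5 CPM of the WT libraries (log2 difference 0.36 ± 0.12, edgeR adjusted p = 0.203). *Tcf12* held 304 and 347 CPM, above 253 and 229 CPM (0.28 ± 0.12, edgeR adjusted p = 0.276), and *Tcf4* differed by 0.26 ± 0.15. Without null replicate 2 *Tcf12* was at 0.24 and *Tcf4* at 0.09. Over all fits with a library left out *Tcf12* ranged from 0.19 to 0.37 and *Tcf4* from 0.09 to 0.42. In CPM all 3 E proteins had both null libraries above both WT libraries in both stages, as 48.2% of the genes tested in progenitors and 42.8% in neurons did. Scaled by library totals only, the median gene itself was higher in null by 0.19 in progenitors and 0.15 in neurons. *Tcf3* in neurons passed with library totals (0.51, adjusted p = 0.0472), without null replicate 1 (0.32, adjusted p = 0.0413) and without null replicate 2 (0.42, adjusted p = 0.0278), and its adjusted p over 15 alternatives ran from 0.0278 to 0.864. The median depth per neuron was 5937.5, 8164.5, 5488.5 and 5508 UMIs, and its part in these differences was not tested.

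**Figure D5:**
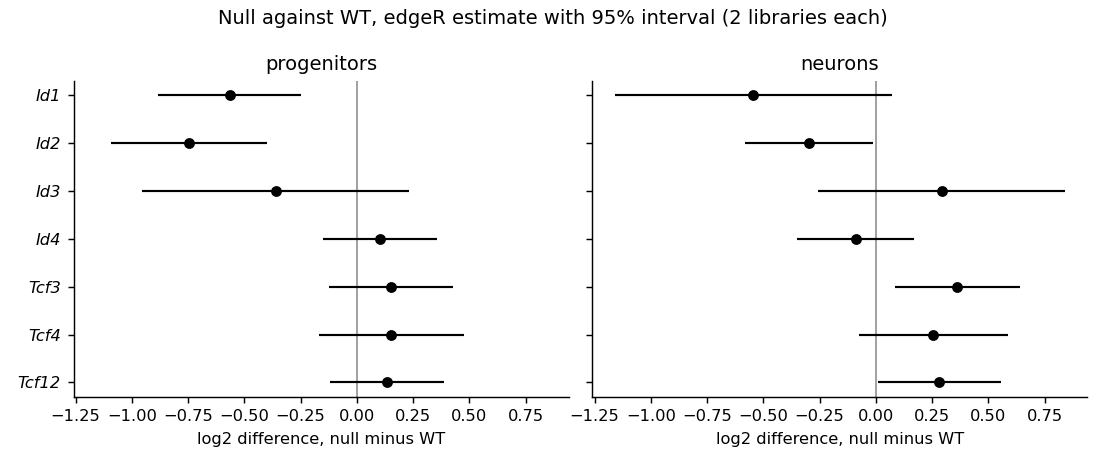
Log2 difference of each gene between null and WT (edgeR estimate with its 95% interval, 2 libraries against 2) in progenitors on the left and neurons on the right, with a line at 0. In progenitors the intervals of *Id1* and *Id2* lie below 0, in neurons those of *Tcf3* and *Tcf12* lie above 0 and that of *Id2* just below it, and none passed after adjustment over all genes.

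Whether the difference between progenitors and neurons itself changed with genotype was tested by an interaction. Of the 7 genes *Id2* and *Id3* passed, where 1.11% of 13723 genes did, and 6 of the 7 had an unadjusted p under 0.05, where 9.07% of all genes did. *Id2* had log2 ratios of progenitors to neurons of -0.20 and -0.55 in the null libraries and -0.01 and 0.12 in the WT libraries, and the difference between genotypes was -0.50 ± 0.09 (edgeR adjusted p = 2.71e-04). Without null replicate 2 it was -0.26 (adjusted p = 0.686), in male cells alone -0.52 (adjusted p = 0.127) and with DESeq2 -0.47 (adjusted p = 0.0610). *Id3* had log2 ratios of 0.40 and 0.12 in null and 0.41 and 1.51 in WT, with a difference of -0.68 ± 0.19 (edgeR adjusted p = 0.0497). It rested on WT replicate 2, without which it was -0.18 (adjusted p = 0.949), and it also lost its call without either null library, with library totals, in male cells alone and without the LGE-like clusters. *Tcf3* was at -0.25 (adjusted p = 0.123) and passed at -0.39 without WT replicate 1 (adjusted p = 0.00647), and *Id1*, *Id4*, *Tcf4* and *Tcf12* did not pass.

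In the pathway lists no gene passed between null and WT, with 0 called by edgeR of 5 bHLH partners, 5 Hes and Hey repressors, 3 BMP ligands and antagonists, 11 BMP receptors and Smads and 8 proneural targets tested in progenitors. In neurons 0 were called of 7, 4, 5, 10 and 8. Unadjusted p was under 0.05 for 1 of these 32 genes in progenitors and 4 of 34 in neurons, where 17.3% and 17.1% of all genes were, and DESeq2 called 0 in both. *Hes5* in progenitors differed by -0.31 ± 0.14 (edgeR adjusted p = 0.297) and passed without null replicate 1 (-0.46, adjusted p = 1.66e-04). By the interaction 11 of the 34 tested pathway genes had an unadjusted p under 0.05, where 9.07% of all genes did. Only 1 passed, *Gadd45g*, a proneural target, at -0.39 ± 0.10 (edgeR adjusted p = 0.0361), beside the 1.11% of all genes. It lost its call in 7 of 8 alternatives, among them DESeq2 (adjusted p = 0.617) and the fits without null replicate 2 (-0.24) and without WT replicate 2 (-0.15).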

How the data were processed

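Per the labels, each library was a pool of microdissected MGE, with 2 null and 2 WT libraries, and replicate numbers follow accession order. The authors deposited 1 raw matrix of UMI counts for each library, with all barcodes and no normalization. The submitters' processing notes name Cell Ranger 5.0.1 and GRCm38, while the matrix headers name Cell Ranger 4. The chemistry's end was not given in the sources used here, so levels are not compared between genes.

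A cell needed 3000 UMIs, 200 genes and a mitochondrial share of no more than 10%. Scrublet in scanpy 1.11.5 gave no usable threshold, so the highest doublet scores were left out at 0.8% per 1000 cells. Seurat 5.3.0 clustered all cells once (2000 variable genes, 49 components, resolution 1.4, with the difference of S and G2M scores regressed out), without the 7 genes, the 50 pathway genes and the sex genes. The study's separate re-clustering of progenitors and neurons was not repeated. Clusters were placed as neurons or progenitors by the larger mean score of 7 neuron and 10 progenitor markers, and other names needed 3 markers in 25% of cells at a log2 fold of 1. In no cluster did markers of the other class outnumber its own in the leading 10 genes. Classes from each cell's own scores agreed for 87.7% of 17984 cells.

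Counts were summed per library and stage. edgeR 4.0.16 (TMM, filterByExpr, quasi-likelihood F-test, Benjamini-Hochberg over all genes tested, two-sided, adjusted p of 0.05) was run with the library as a block in stage comparisons, because both stages come from the same pool of embryos, and without covariates between genotypes. Nothing says how many pools were separate litters, so p-values measure the spread between these libraries. Code was tested on simulated data. Intervals on single CPM values are exact Poisson at 95% and cover counting error only. With progenitors and neurons summed, replicates differed beyond sampling noise (chi-square per degree of freedom 52.1 in null, 5.60 in WT).

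Named genes were the 7 members, up to 4 genes of the highest mean level per pathway list and the 3 most alike genes per member, and 1 gene of the pathway lists is not reported here. Members, lists and comparisons were chosen with earlier results of these data known. Alternatives were RLE factors, library totals, no filter, DESeq2 1.42.0, each library left out, doublets kept, a UMI threshold per library, classes by cell, no block, equal cells per cluster and male cells. After the data were seen, leaving out clusters 6 and 24 (both scores below 0), leaving out the LGE-like clusters, and male cells and DESeq2 for the interaction were added. Promoters came from RefSeq (GRCm38.p6), and gene positions from GENCODE M21. *Id1* and *Tcf4* promoters were not used here.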

Additional observations from a re-analysis of the deposited data

Results flagged for a closer look

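The tests of the difference between genotypes set 3 named genes apart for their progenitor to neuron difference, null minus WT on the log2 scale. *Id2* differed by -0.50 ± 0.09 (edgeR adjusted p = 2.71e-04). Its ratio of progenitors to neurons was below that of both WT libraries in both null libraries, and its call was lost without null replicate 2, the library whose *St18* level went against its label. *Id3* differed by -0.68 ± 0.19 (edgeR adjusted p = 0.0497) and its ratio of progenitors to neurons was 1.32 in both null replicate 1 and WT replicate 1. *Gadd45g*, a proneural target, differed by -0.39 ± 0.10 (edgeR adjusted p = 0.0361), a call lost in 7 of 8 alternatives, DESeq2 (adjusted p = 0.617) included. Of the 152 genes called in that test 137 had negative values, as these 3 did.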

How the results depend on the processing

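The 7 members kept their direction between radial-glia-like cells and other progenitors under all 13 alternatives, and all 7 calls except that of *Tcf3* without the library block (-0.21, adjusted p = 0.141). In the stage comparisons, leaving out the replicate block changed no other call of a member. No paired analysis was possible because, between genotypes, the labels give the libraries no replicate numbers and tie no null library to a WT library, although the study obtained mutants and wildtypes as littermates. Between progenitors and neurons, 5 members were called and 5 to 6 with a library left out. *Id2* ranged from -0.205 to 0.0339 with a library left out, and *Tcf12* was -1.79e-04 without the LGE-like clusters.

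For null against WT, in progenitors 0 members were called by edgeR (2 had an unadjusted p under 0.05, and 6 with library totals), 2 without the filter on low counts, 1 with DESeq2 and 0 to 5 with a library left out. *Tcf4* there ranged from -1.89e-05 to 0.297 with a library left out. In neurons 0 members were called (3 under an unadjusted p of 0.05), 1 with library totals and 0 to 3 with a library left out. *Id4* in neurons turned to 0.0618 with library totals and 0.0469 in male cells, and *Id3* ranged from -0.0160 to 0.694 with a library left out. For the interaction 2 members were called, 1 with library totals, 1 without the LGE-like clusters, 0 in male cells, 0 with DESeq2 (which gave *Id1* and *Id3* no adjusted p) and 0 to 3 with a library left out, while an unadjusted p under 0.05 was held by 6 members, by 6 in male cells and by 2 with DESeq2. The interaction's count of members called moved by over 1.5 times in 7 of 8 alternatives and was 3 in the other. *Id1* there turned to 0.0183 with library totals and 0.0315 in male cells, and ranged from -0.132 to 0.0826 with a library left out.

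Over all genes, 3 were called in progenitors, against 110 with library totals, 923 without the filter, 326 with DESeq2, 10 without clusters 6 and 24, 0 in male cells (2004 under an unadjusted p of 0.05) and 25 to 4371 with a library left out, most without null replicate 1. In neurons 10 were called (4 higher in null), against 370 with library totals (285 higher), 392 without the filter, 302 with DESeq2, 56 with doublets kept, 78 without the LGE-like clusters, 81 with equal cells per cluster, 1 in male cells and 66 to 2873 with a library left out. The interaction called 152 (15 higher), against 107 with library totals (32 higher), 37 in male cells, 64 without the LGE-like clusters, 51 with DESeq2 and 39 to 193 with a library left out. Fits in male cells or with a library left out also held fewer cells or libraries, and the causes of these changes were not tested. All 21 shares of cells with a UMI moved by more than the spread between libraries when cells were not thinned. At this depth the share of neurons with an *Id1* UMI was no higher than that of erythroid-like cells.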

Other observations

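Outside the neural stages, the small microglia-like and oligodendrocyte precursor-like classes carried *Id3* at levels above those of the radial-glia-like cells as a whole. The 97 microglia-like cells were at 107, 169, 92.2 and 117 CPM of *Id3* and at 19.3, 65.0, 80.2 and 66.1 CPM of *Id1*, from 156 and 73 UMIs in all. *Id4* was low in them, at 8.38 CPM from 11 UMIs, while *Tcf4* was at 518 CPM with the libraries summed. The 33 oligodendrocyte precursor-like cells were at 154 CPM of *Id3* (95% Poisson interval 117 to 199, counting error only) with the libraries summed, but at 0 in WT replicate 2, which held 4 of these cells and whose interval reaches 130 CPM. They held 23.5 CPM of *Id1* and 54.9 CPM of *Id4*.

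Within radial-glia-like cells thinned to 3000 UMIs, *Id1* and *Id3* were found together in 33 cells, where 17.8 would be expected if the genes were detected independently. By library the counts were 13, 6, 5 and 9 against 7.35, 2.12, 4.8 and 3.57. *Id3* and *Id4* were found together in 39 cells against 59.0 expected, and in fewer than expected in all 4 libraries (17, 7, 9 and 6 against 28.1, 9.95, 11.5 and 9.60). Among the other pairs counted, *Id2* and *Id4* were together in 94 cells against 80.1 expected, and in more than expected in all 4 libraries. *Id1* and *Id4* were together in 63 against 68.0, and *Id1* and *Id2* in 26 against 24.2. The expected counts pool the radial-glia-like clusters, which differ in these genes. These are descriptions of sparse counts with no test.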
